A study of Mus musculus with 4 samples.

Results

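The BCL2 family decides whether a cell under stress releases cytochrome c from its mitochondria and dies. Expression of 10 of its genes was compared between mouse epiblast stem cells (EpiSCs), pluripotent cells of the postimplantation epiblast, and cells converted from them with small molecules. The rule that lists them uses gene symbols and no measured value, although it was written with earlier results of these data known. They are the anti-apoptotic Bcl2 and Bcl2l1, the pro-apoptotic effectors Bax and Bak1, and the BH3-only genes Bcl2l11, Bad, Bid, Bik, Bbc3 and Pmaip1. Probes carried 9 of the 10 symbols, through 25 of the 25697 probes, and those 9 are among 16593 genes with a probe in all. Bax was not analysed here. Each gene is represented by its brightest probe, the one with the highest mean log2 intensity over the 4 arrays.

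The study put total RNA of 2 EpiSC samples and of 2 samples labelled parnate/mAMFGi on Illumina bead arrays, 1 array each. The labels name the second group converted mouse ESCs. Parnate (tranylcypromine) inhibits the histone demethylase LSD1, and the sources used here do not spell out the rest of that label or say whether any compound was present at harvest. Per the labels, EpiSCs were kept in medium with 20% serum replacement and bFGF at 10 ng/ml, and the converted cells in medium with 10% fetal bovine serum and LIF at 1000 units/ml. Both groups had irradiated embryonic fibroblasts as feeders. The effects of medium and of conversion cannot be told apart. The labels call the samples biological replicates but name no cell line, clone or separate culture, so p-values measure only the spread between these samples.

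The proteins act in tiers. Anti-apoptotic members hold the effectors BAX and BAK in check at the outer mitochondrial membrane. BH3-only proteins carry stress signals: some occupy the groove of the anti-apoptotic proteins and free the effectors, and some, such as BIM (Bcl2l11) and the cleaved form of BID, can also engage the effectors directly. Active effectors permeabilise the membrane, after which cytochrome c and APAF1 assemble the apoptosome and start the caspases. Pluripotent cells are known for a low threshold for mitochondrial apoptosis.

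Of the 9 measured genes, 4 fell in parnate/mAMFGi cells (Pmaip1, Bik, Bbc3 and Bcl2l11), 1 rose (Bid), and Bcl2, Bcl2l1, Bak1 and Bad did not pass the test (limma, Benjamini-Hochberg adjusted p under 0.05 over all probes). All of the 5 called genes are BH3-only, and the falls of Pmaip1, Bik and Bbc3 were each close to 2-fold. Over all genes on the array, 41.5% passed the same test, 20.2% higher and 21.2% lower, against 55.6% of the 9 members. Dim probes pass less often. In a fit of only the probes brighter than the median, 8764 of 12848 passed, and so did 5 of the 8 members kept. Among pro-apoptotic members, 5 of 7 passed and the median log2 fold change was -0.46. Neither of the 2 anti-apoptotic members passed in limma (1 of 2 at an unadjusted p under 0.05), and their median was 0.17. The median over all genes was 0.02. Positive log2 fold changes mean a higher level in parnate/mAMFGi cells. In these bulk samples, fewer cells of a type and less RNA per cell cannot be told apart.

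The promoters of the 3 called members with a promoter entry are shown: Bbc3 and Bcl2l11, which fell, and Bid, which rose. Each line gives the 250 bases before a start site, 5′ to 3′ on the gene's strand, from the RefSeq promoter table (GRCm38.p6). In it, 8 of the 10 listed genes had an entry. Pmaip1 and Bik, the members with the largest falls, had none. Capitals mark matches on either strand to the GC box GGGCGG, the FoxO core GTAAACA, the cyclic AMP response element TGACGTCA, the CCAAT box CCAAT, or the p53 half-site. Neighbouring GC boxes can overlap. Bbc3 has 3 such windows and Bcl2l11 has 2, and the ones shown were picked because they hold the FoxO core. The Bbc3 window lies at chr7:16310011-16310260 on the plus strand, the Bcl2l11 window at chr2:128125788-128126037 on the plus strand, and the Bid window at chr6:120916825-120917074 on the minus strand.
Bbc3: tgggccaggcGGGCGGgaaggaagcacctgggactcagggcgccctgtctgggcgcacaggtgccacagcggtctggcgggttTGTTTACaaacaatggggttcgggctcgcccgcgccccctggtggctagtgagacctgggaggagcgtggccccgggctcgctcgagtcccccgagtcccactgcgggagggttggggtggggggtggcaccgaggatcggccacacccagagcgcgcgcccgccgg
Bcl2l11: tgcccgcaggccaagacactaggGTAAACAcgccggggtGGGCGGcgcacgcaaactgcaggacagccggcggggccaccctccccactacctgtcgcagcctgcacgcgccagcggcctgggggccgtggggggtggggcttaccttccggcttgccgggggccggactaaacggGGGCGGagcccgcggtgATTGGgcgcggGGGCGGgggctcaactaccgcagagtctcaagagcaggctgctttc
Bid: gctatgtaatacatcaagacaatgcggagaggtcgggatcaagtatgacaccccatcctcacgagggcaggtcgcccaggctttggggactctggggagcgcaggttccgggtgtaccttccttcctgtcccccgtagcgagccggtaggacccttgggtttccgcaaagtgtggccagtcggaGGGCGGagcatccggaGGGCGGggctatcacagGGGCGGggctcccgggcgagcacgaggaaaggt
The FoxO core occurred in 3.17% of all 32851 promoter windows of this length, the GC box in 32.7%, the CCAAT box in 33.8%, the p53 half-site in 7.13% and the cyclic AMP response element in 1.55%. The window of Bbc3 held 1 GC box and 1 FoxO core. That of Bcl2l11 held 3 GC boxes, 1 FoxO core and 1 CCAAT box, and that of Bid held 3 GC boxes. No shown window held a p53 half-site or a cyclic AMP response element. The other Bbc3 windows held 5 and 7 GC boxes, and the other Bcl2l11 window held 2. These other windows held no FoxO core. Since the shown windows were picked for that core, its share over all windows does not bear on them. These are matches of letters, not measured binding sites, and a role of FoxO factors was not tested. On the arrays, the EpiSC level of Foxo1 was 274.7 ± 49.9 and the parnate/mAMFGi level 251.6 ± 1.2 (adjusted p = 0.523, limma), and Foxo3 lay below the array medians in both groups.

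Among anti-apoptotic members, Bcl2 was dim everywhere. BCL2 is the founding member of the family and blocks membrane permeabilisation. Its brightest probe read 47.7 and 42.3 in the EpiSC arrays and 49.6 and 42.6 in the parnate/mAMFGi arrays, around or below the array medians of 50 to 52. The groups overlapped, with a log2 fold change of 0.03 (95% interval -0.20 to 0.26, adjusted p = 0.865, limma). All 8 Bcl2 probes, annotated to 2 transcripts, read between 33.1 and 54.1 on every array. One of them passed, from 54.1 and 48.4 to 36.9 and 40.0 (log2 fold change -0.41, SE 0.10, adjusted p = 0.00348, limma), at intensities near the floor of the arrays.

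Bcl2l1 encodes BCL-XL, the close relative of BCL2 (and, by splicing, the pro-apoptotic BCL-XS). It read 158.8 and 113.7 in EpiSCs and 181.2 and 151.5 in parnate/mAMFGi cells. The higher EpiSC array lay above the lower parnate/mAMFGi array, so the groups overlapped. Its log2 fold change of 0.30 (SE 0.14, 95% interval 0.004 to 0.60) did not pass (adjusted p = 0.109, limma). The 2 dimmer Bcl2l1 probes had log2 fold changes of 0.33, which passed (adjusted p = 0.0161, limma), and 0.21, which did not (adjusted p = 0.113, limma). Without EpiSC replicate 1, the brightest probe's log2 fold change was 0.54 (adjusted p = 0.00249, limma). Without EpiSC replicate 2 it was 0.06 (adjusted p = 0.77, limma), and without parnate/mAMFGi replicate 1 it was 0.17 (adjusted p = 0.613, limma). With all Bcl2l1 probes averaged it was 0.28 (adjusted p = 0.0218, limma).

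The effector Bak1, whose product forms pores in the outer mitochondrial membrane, read 57.4 and 67.1 in EpiSCs and 47.2 and 56.2 in parnate/mAMFGi cells. The groups did not overlap, but only narrowly and close to the array medians. The log2 fold change of -0.27 (SE 0.11) did not pass (adjusted p = 0.0762, limma). It passed in 7 of 14 alternatives, among them quantile normalization (adjusted p = 0.0428, limma) and the fit without EpiSC replicate 1 (log2 fold change -0.38, adjusted p = 0.0228, limma). It was nearer 0 without EpiSC replicate 2 (-0.16, adjusted p = 0.378, limma) and without parnate/mAMFGi replicate 1 (-0.14, adjusted p = 0.558, limma).

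**Figure D1:**
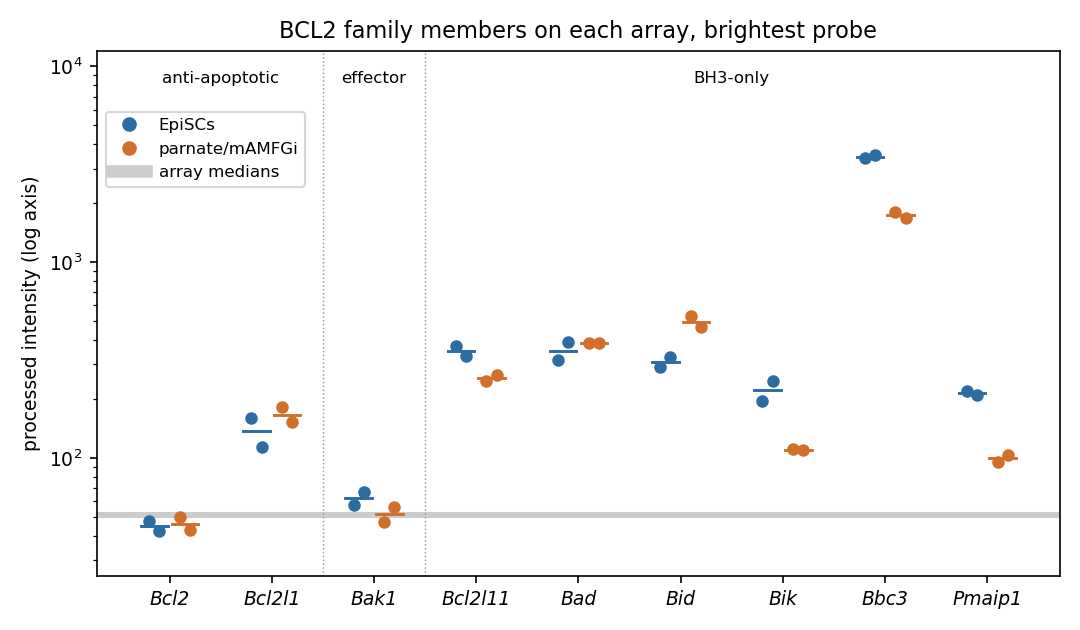
Processed intensity (log axis) of the 9 measured members on each array, by the brightest probe. Points are arrays (blue EpiSCs, orange parnate/mAMFGi, 2 each), short lines are group means, and the grey band spans the array medians of 50 to 52. Pmaip1, Bik, Bbc3 and Bcl2l11 are lower and Bid is higher on both parnate/mAMFGi arrays, while Bcl2 and Bak1 sit near the band.

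Pmaip1 (Noxa) had the largest fall among the members. NOXA binds mainly MCL1 and is a textbook p53 target. The probe read 219.5 and 209.4 in EpiSCs and 95.3 and 103.2 in parnate/mAMFGi cells. Both converted arrays read less than any EpiSC array, with little spread within groups. The log2 fold change was -1.11 (SE 0.10, adjusted p = 2.21e-07, limma), which is 2.16-fold lower. A second Pmaip1 probe fell too, from 130.5 and 111.3 to 68.6 and 69.2 (log2 fold change -0.81, adjusted p = 1.2e-05, limma).

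Bik encodes a BH3-only protein that sits at the endoplasmic reticulum. It read 195.0 and 247.5 in EpiSCs and 110.3 and 109.3 in parnate/mAMFGi cells. The converted arrays were almost equal, and the EpiSC arrays differed from each other by less than from them. The resulting log2 fold change was -1.0 (SE 0.11, adjusted p = 3.84e-06, limma). Bik has 1 probe, so no second probe bears on it.

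Bbc3 (PUMA) encodes a BH3-only protein that binds all the main anti-apoptotic members, and is also a p53 target. Its signal was many times the array median on every array: 3412.8 and 3503.1 in EpiSCs, and 1803.1 and 1681.9 in parnate/mAMFGi cells. The difference between groups was many times that between arrays of a group. This amounted to a log2 fold change of -0.99 (SE 0.09, adjusted p = 6.59e-07, limma), or 1.99-fold lower. Of 2 dimmer Bbc3 probes, 1 fell (log2 fold change -0.44, adjusted p = 0.00328, limma) and 1 stood at 0.03 (adjusted p = 0.858, limma). With the 3 probes averaged, the log2 fold change was -0.46 (adjusted p = 0.000828, limma).

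Bcl2l11 (BIM) encodes a BH3-only protein that binds every anti-apoptotic member and can activate the effectors. It read 372.3 and 329.9 in EpiSCs and 247.2 and 264.4 in parnate/mAMFGi cells. The groups did not overlap, and the step was smaller than for the other genes that fell, with a log2 fold change of -0.46 (SE 0.10, adjusted p = 0.0017, limma). The second brightest probe is annotated to another transcript of the gene and fell by a like amount, from 166.9 and 160.2 to 114.8 and 118.7 (log2 fold change -0.49, adjusted p = 0.00058, limma). The 2 dimmest Bcl2l11 probes did not pass (log2 fold changes of 0.10 and -0.07), and with all 4 averaged the log2 fold change was -0.23 (adjusted p = 0.0392, limma).

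Bid, which links death receptors to mitochondria once caspase-8 has cleaved its product, was the member that rose. It read 289.5 and 325.7 in EpiSCs and 527.2 and 463.8 in parnate/mAMFGi cells. Both converted arrays lay well above both EpiSC arrays. The log2 fold change was 0.69 (SE 0.10, adjusted p = 6.76e-05, limma), or 1.61-fold. The other Bid probe read between 41.8 and 45.9, below the array medians, with a log2 fold change of 0.04, and the average of both probes stood at 0.36 (adjusted p = 0.00351, limma).

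Bad encodes a BH3-only protein held inactive by growth factor signalling through AKT. It read 315.9 and 388.4 in EpiSCs and 383.8 and 387.5 in parnate/mAMFGi cells. The groups overlapped, because EpiSC replicate 2 matched the converted arrays. The log2 fold change was 0.14 (95% interval -0.09 to 0.37, adjusted p = 0.383, limma). It was 0.29 without EpiSC replicate 2 (adjusted p = 0.0452, limma) and -0.01 without EpiSC replicate 1, so the 2 EpiSC arrays decide its direction.

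**Figure D2:**
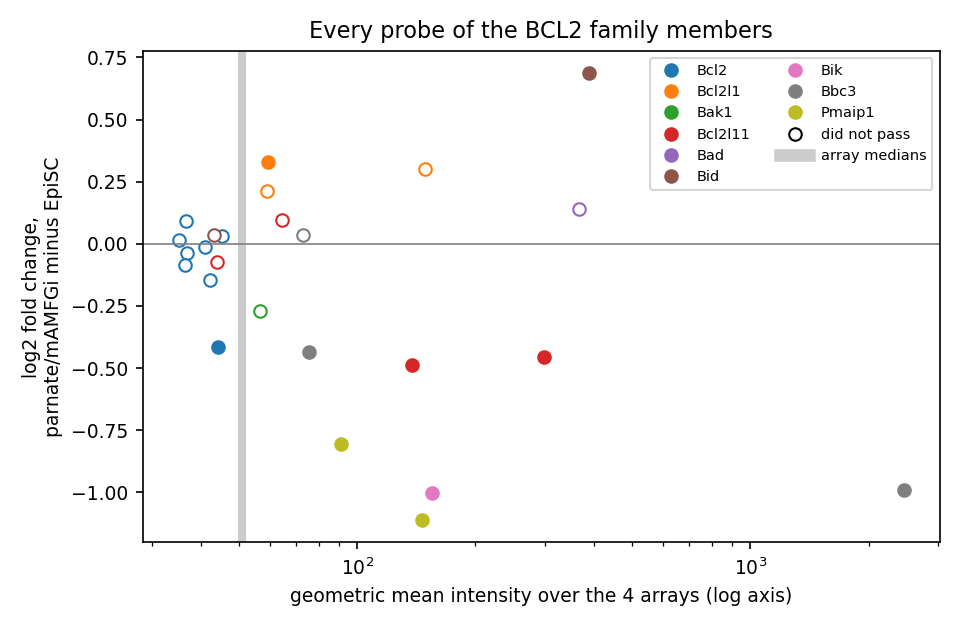
Log2 fold change against geometric mean intensity over the 4 arrays (log axis) for all 25 probes of the 9 members. Filled points passed the test and open points did not. The 10 probes dimmer than the median probe, 8 of them for Bcl2, cluster near 0 with 1 exception. Of the 15 brighter probes, 9 passed, 7 lower and 2 higher. In a fit of only the probes brighter than the median, 8764 of all 12848 passed.

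Single probes of a gene did not always give the same call. Of the 25 member probes, 8 fell, 2 rose and 15 did not pass, against 38.4% of all probes called (19.7% higher, 18.7% lower). Of the 10 probes dimmer than the median probe, 1 was called. No array had a value under 25.5, which leaves some background in every intensity and understates the folds of dim genes. Bcl2 and Bak1, which read close to the array medians or below them, are the members this touches most. Ranked over all 16593 genes, 5.12% fell at least as far as Pmaip1, 6.31% as far as Bik, 6.5% as far as Bbc3 and 15.5% as far as Bcl2l11, and 8.89% rose at least as far as Bid. The arrays of the groups did not overlap for 6 of the 9 members, against 66.1% of all genes.

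The rest of the family also held falls, on the anti-apoptotic side as well. Of 4 further anti-apoptotic relatives with a probe, 2 fell and 2 did not pass. Mcl1, whose short-lived product is the main partner of NOXA, read 11486.1 and 11892.3 in EpiSCs and 4582.4 and 5049.2 in parnate/mAMFGi cells. Both converted arrays lay far below both EpiSC arrays, with a log2 fold change of -1.28 (SE 0.10, adjusted p = 5.44e-08, limma). Bcl2l2 (BCL-W) fell from 282.5 ± 8.06 to 153.7 ± 6.08 (log2 fold change -0.88, adjusted p = 2.19e-06, limma), and by 0.48 with its 3 probes averaged. Bcl2a1d and Bcl2l10 did not pass and read at most 45.3 on any array by these probes. Mouse Bcl2a1 genes are close paralogs that a probe may not separate.

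Of 7 further pro-apoptotic relatives, 4 fell, 1 rose and 2 did not pass. Bnip3l (NIX), a mitophagy receptor, read 3536.4 and 3722.1 in EpiSCs and 1434.7 and 1646.9 in parnate/mAMFGi cells, a log2 fold change of -1.24 (SE 0.10, adjusted p = 1.22e-07, limma). Its relative Bnip3 stayed below the array medians in both groups, at 44.5 ± 0.354 and 43.2 ± 2.97, and did not pass. Bok, the third effector-like gene, fell from 429.0 ± 55.3 to 250.2 ± 27.1 (log2 fold change -0.78, or -0.41 with its probes averaged), and the BH3-only gene Bmf from 184.0 ± 25.6 to 108.1 ± 7.57 (-0.76). Bcl2l13, an outer-membrane protein gene, fell by 0.44 on the log2 scale. Bcl2l14 was the relative that rose (log2 fold change 0.65), from 34.9 and 40.2 to 56.5 and 61.2, around the array medians. After normexp correction it rose by 0.42 with offset 50 and by 0.86 with offset 16. The BH3-only gene Hrk read 45.4 ± 2.47 and 51.5 ± 0.778 and did not pass.

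**Figure D3:**
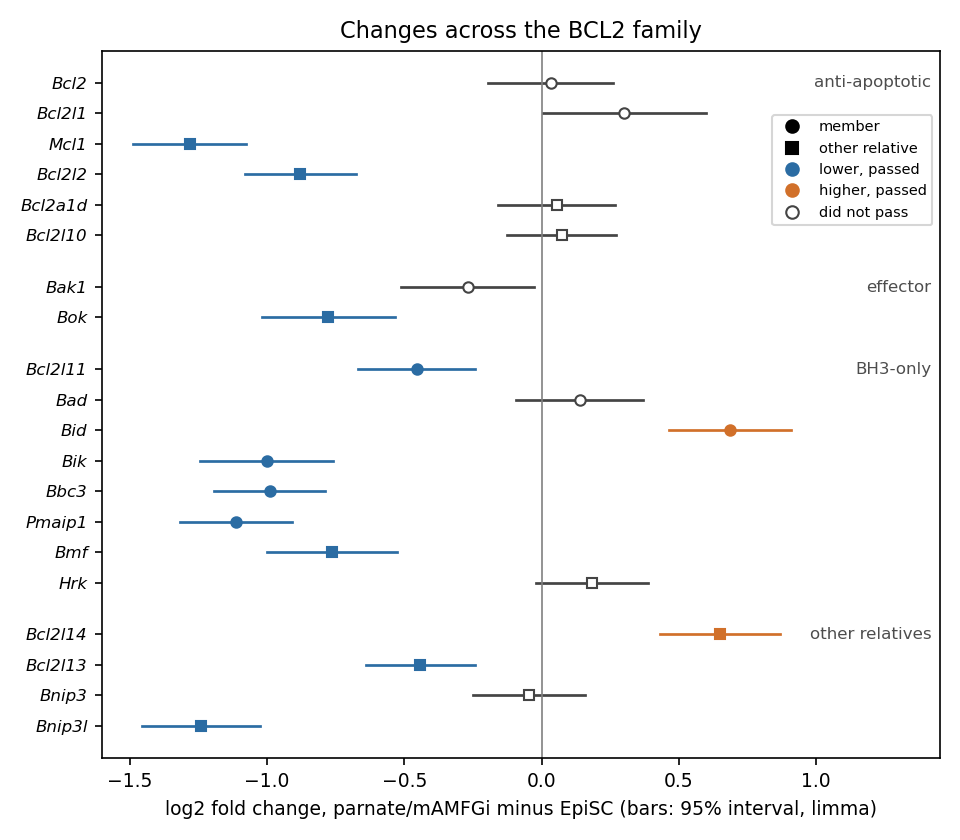
Log2 fold change (parnate/mAMFGi minus EpiSC) with its 95% interval for the 9 members (circles) and 11 other BCL2 relatives (squares). Blue passed lower, orange passed higher, and open symbols did not pass. Of the 20 genes, 10 lie lower and 2 higher past the threshold, with falls among both anti-apoptotic genes (Mcl1, Bcl2l2) and pro-apoptotic ones.

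Across the 20 family genes with a probe, 10 fell, 2 rose and 8 did not pass. On the pro-apoptotic side, 8 of 14 fell and 2 rose, with a median log2 fold change of -0.45. On the anti-apoptotic side, 2 of 6 fell and none rose in limma (3 of 6 had an unadjusted p under 0.05), with a median of 0.05. For all genes, 21.2% were called lower and 20.2% higher. In the fit of only the probes brighter than the median, 4423 of 12848 were called lower and 4341 higher.

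Downstream of the family, the apoptosome and executioner caspase genes were lower in part. Of 9 genes measured, 4 fell, 3 rose and 2 did not pass, and the list's median was 0.04. Beside this list and those below, 41.5% of all genes were called, 20.2% higher and 21.2% lower. With the probes brighter than the median fitted alone, 8764 of 12848 were called. Casp6, an executioner caspase gene, read 1213.7 and 1344.7 in EpiSCs against 344.1 and 334.9 in the converted cells (log2 fold change -1.91, SE 0.10, adjusted p = 8.01e-10, limma). The initiator Casp9 fell from 589.5 ± 51.1 to 277.6 ± 4.31 (log2 fold change -1.08). Its other 2 probes lay below the array medians and did not pass (0.10 and -0.10), and the average of the 3 was -0.36 (adjusted p = 0.00487, limma). Apaf1, the scaffold of Casp9, has a dimmer probe that did not pass (log2 fold change -0.255, adjusted p = 0.0672, limma). Its brightest probe fell from 1212 ± 211 to 852.9 ± 7.07 (log2 fold change -0.50). Its call was lost without parnate/mAMFGi replicate 2, at a log2 fold change of -0.49 (adjusted p = 0.0536, limma). It was kept without EpiSC replicate 1, at -0.32 (adjusted p = 0.0288, limma). Diablo (SMAC), released from mitochondria to block inhibitors of apoptosis, rose from 791.9 ± 44.7 to 1216 ± 27.2 (log2 fold change 0.62).

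Among 5 inhibitor of apoptosis genes, Birc2 (cIAP1) fell and Birc5 (survivin, also a mitotic protein) rose, and 3 did not pass. Birc2 read 2018.8 and 1960.2 in EpiSCs against 656.2 and 679.9 in the converted cells (log2 fold change -1.57, adjusted p = 4.25e-09, limma). Birc5 had a log2 fold change of 0.49 by its brightest probe. The second brightest Birc5 probe did not pass (0.12, adjusted p = 0.404, limma), and the dimmest did (0.43). With its probes averaged, Birc5 stood at 0.35 (adjusted p = 0.00587, limma). Of 6 death receptor genes, 2 fell and 2 rose. The receptor genes Fas (from 260.4 ± 2.26 to 113.6 ± 11.2) and Tnfrsf10b (from 308.9 ± 58.5 to 158.7 ± 11.6) fell. The adaptor Fadd, which lies upstream of caspase-8 and Bid, rose from 210.6 ± 19.2 to 384.9 ± 32.7 (log2 fold change 0.87, adjusted p = 6.85e-06, limma). Casp8, counted among the caspase genes above, fell from 84.1 ± 5.09 to 68.55 ± 5.73 by its brightest probe (log2 fold change -0.30, adjusted p = 0.0293, limma). Its other probe did not pass (-0.22). With all probes of a gene averaged, the log2 fold change of Fas was -0.69 against -1.20 by its brightest probe, and that of Fadd was 0.44, and both passed. Tnfrsf1a rose by 0.28 on the log2 scale near the array medians, and its call was lost in 9 of 14 alternatives, including those without EpiSC replicate 2 (adjusted p = 0.231, limma), without parnate/mAMFGi replicate 1 (0.0772) and without parnate/mAMFGi replicate 2 (0.359). With its probes averaged it stood at 0.06.

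Upstream, p53 activates Pmaip1 and Bbc3 in textbook accounts. A list of other p53 targets and regulators was read beside them, and a role of p53 was not tested. Of 12 genes measured, 5 fell, 3 rose and 4 did not pass, with a median of -0.03. Trp53 itself was not analysed here. The cell cycle inhibitor Cdkn1a (p21) read 3991.0 and 4017.1 in EpiSCs against 1601.3 and 1435.8 in the converted cells (log2 fold change -1.40, adjusted p = 2.22e-08, limma). Ccng1 fell by 0.99 on the log2 scale by its brightest probe. Another bright Ccng1 probe read higher in the converted cells, at 3130 ± 124 and 4010 ± 910 (log2 fold change 0.34, adjusted p = 0.0514, limma), and the average of its 3 probes was -0.47 (adjusted p = 0.00315, limma). Sesn1 fell by 2.23 on the log2 scale, whereas Sesn2, which also responds to ATF4, rose from 180.1 ± 4.6 to 519.1 ± 38.1 (log2 fold change 1.53). The p53 ubiquitin ligase gene Mdm2 measured 2617 ± 241 and 2873 ± 31 and did not pass by its brightest probe, while its second brightest rose from 1925 ± 59.6 to 2699 ± 86.8 (log2 fold change 0.49, adjusted p = 0.000587, limma).

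Of 11 other regulators and mitochondrial partners, 6 fell, 1 rose and 4 did not pass, with a median of -0.27. Ddit3 (CHOP), a stress factor known to activate BH3-only genes and Tnfrsf10b, read 585.6 and 608.3 in EpiSCs against 219.3 and 160.1 in the converted cells (log2 fold change -1.67, SE 0.13, adjusted p = 5.96e-08, limma). Mapk8 (JNK1), whose kinase phosphorylates BIM and BMF, fell by 1.19 on the log2 scale. Bcap31, an endoplasmic reticulum protein that binds BCL2 relatives, rose by 0.99. The channel gene Vdac1 fell by 0.48, and Vdac2, known to hold BAK at the membrane, fell by 0.27 on the log2 scale.

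**Figure D4:**
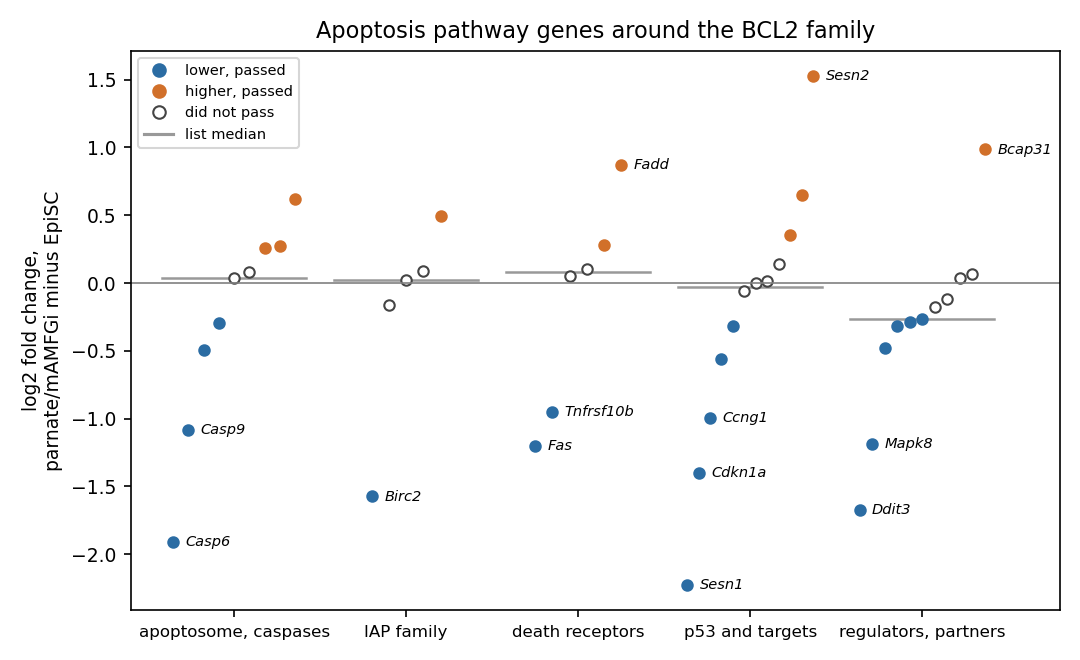
Log2 fold changes of genes around the BCL2 family in 5 lists, ordered within each list, with the list median as a grey line. Blue passed lower, orange passed higher, open did not pass. Casp6, Birc2, Sesn1 and Ddit3 lie lowest in their lists, and Sesn2, Bcap31 and Fadd lie highest.

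Markers were checked for the labels and for feeder cells. Of 10 ES cell and inner cell mass markers, 9 rose, and their summed intensity ran from 693.2 to 742.9 in EpiSCs and from 45905 to 47878 in parnate/mAMFGi cells. Most of the second sum was Dppa5a, and without it the sums were 606.5 to 658.7 and 14168 to 14562. Of 8 epiblast and EpiSC markers, 5 fell and 2 rose, with sums of 6855 to 7210.5 and 7148 to 7326.5. Otx2, one of those that rose, carried much of both sums, which were 3714 to 4041 and 2479 to 2514 without it. Of 11 fibroblast feeder markers, 8 rose, 1 (Thy1) fell and 2 (Postn and Twist2) did not pass. Those that rose were Lox (from 59.5 to 1113, or 18.8-fold), Col1a1 (4.62-fold), Dcn (3.95-fold), Col3a1 (3.82-fold), Lum, Col1a2, Pdgfra and Pdgfrb (1.91-fold to 1.22-fold). The summed intensity of the 11 markers ran from 1207 to 1343 in EpiSCs and from 3121 to 3461 in parnate/mAMFGi cells. Without Lox, these sums were 1153.5 to 1278 and 2044.6 to 2311.6. Postn lay below the array medians in both groups (35.3 and 38.7), Twist2 was near them, and no marker was listed at 0. Feeder markers moved with the group, beside the called BCL2 family genes, and their part in those calls was not tested. Over all probes, log2 intensities correlated at 0.9963 and 0.9976 within groups and at 0.9415 to 0.9451 between them, across probes that are not independent replicates.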

How the data were processed

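Biotin-labelled cRNA from 500 ng total RNA of each of the 4 samples was hybridised, per the labels' protocols. The authors deposited processed intensities on a linear scale, 1 per probe and array. How these were normalized is not stated in those sources. The 8 columns of a second table have names that match no sample label and were not used, so no detection call entered.

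Intensities were log2-transformed without pseudocount or filter. Groups were compared with limma 3.58.1 (R 4.3.3, lmFit and eBayes) over all 25697 probes, with Benjamini-Hochberg adjustment calling adjusted p under 0.05. The 2 residual degrees of freedom were moderated by 11.8 prior ones. With 2 arrays per group, their number limits the precision. Gene symbols came from the platform annotation (23978 probes with 1 symbol, 1719 without). Values after ± are SDs (n = 2 arrays).

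Named genes are all members, every further BCL2 relative, and up to 4 called genes with the largest changes per pathway list. Casp8, Foxo1, Foxo3, Mdm2 and Vdac2 and the marker genes were added after their values were seen. Members and lists were chosen with earlier results of these data known. Alternatives were 3 normalizations, normexp background correction (offsets 50 and 16), brighter probes alone, eBayes with trend or robust, each array left out, the replicate number as a block, and gene means over probes.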

Additional observations from a re-analysis of the deposited data

How the results depend on the processing

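Under 14 alternatives, the calls of Pmaip1, Bik, Bbc3, Bcl2l11 and Bid were kept with their direction, with highest adjusted p-values of 0.000263, 0.00156, 0.000828, 0.0483 and 0.00835 in limma. The count of members called ranged from 5 to 7 of 9. The anti-apoptotic count of 0 became 1 (Bcl2l1, higher) with gene means over probes and with the replicate number as a block, and ranged from 0 to 1 when each array was left out. Bak1 passed in 7 alternatives and Bad in 1. Bcl2, never called, turned to -0.013 (quantile), -0.019 (common median and normexp with offset 16), -0.002 (cyclic loess), -0.009 (normexp with offset 50), -0.053 (without EpiSC replicate 2), -0.076 (without parnate/mAMFGi replicate 1) and -0.07 (gene means), and reached 0.14 without parnate/mAMFGi replicate 2. When each array was left out, log2 fold changes ran from -0.01 (without EpiSC replicate 1) to 0.29 for Bad, from -0.026 (without parnate/mAMFGi replicate 2) to 0.14 for Bcl2a1d, and from -0.12 to 0.024 (without parnate/mAMFGi replicate 1) for Bnip3. None of these 4 genes was called where its sign had turned. The cause was not tested. The labels tie same-numbered samples by number only, and their deviations from the group means correlated at -0.0574 over probes. The block changed the calls of Bcl2l1 (adjusted p = 0.0244, limma) and Bak1 (0.0409) among the members, and 9912 probes passed with it against 9870. Over the settings that tested all probes, between 7490 and 9986 probes passed. Signal near the array medians limits Bcl2, Bak1, Bcl2a1d, Bcl2l10, Bnip3, Hrk and Bcl2l14.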

Other observations

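Gene order in the RefSeq table (GRCm38.p6) was used to look at the nearest genes with a probe on either side of each member. Of these 18 neighbours, 3 rose, 6 fell and 9 did not pass, against 41.5% of all genes called (20.2% higher, 21.2% lower). Bid lies next to its relative Bcl2l13 on chromosome 6, and the pair moved in opposite directions: Bid rose by 0.69 and Bcl2l13 fell by 0.44 on the log2 scale (limma adjusted p = 6.76e-05 and 0.00122). On the other side of Bid, Mical3 rose from 80.1 to 112.5 (log2 fold change 0.49, adjusted p = 0.0011, limma). Neither neighbour of Bik (Ttll1 and Mcat) passed, with log2 fold changes of -0.13 and 0.10, and neither neighbour of Pmaip1 did (Ccbe1 at -0.05 and Mc4r at 0.00, both below the array medians). Next to Bbc3, the SUMO-activating enzyme gene Sae1 fell by 0.41 on the log2 scale and Ccdc9 did not pass (0.19). Next to Bcl2l11, Acoxl rose from 33.6 to 67.3, around the array medians, while Bcl2l11 fell, and Anapc1 did not pass (0.15). Both neighbours of Bad fell, Gpr137 by 0.48 and Plcb3 by 0.52 on the log2 scale, whereas Bad did not pass. Beside the other members that did not pass, Kdsr (next to Bcl2) fell by 0.44 and Tpx2 (next to Bcl2l1) by 0.75 on the log2 scale, and Zbtb9 (next to Bak1) rose by 0.72, while Phlpp1, Cox4i2 and Itpr3 did not pass. These neighbours were chosen by position, and no test of shared movement was made.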
